A study of Mus musculus with 14 samples.

Results

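Messenger RNA levels were described for Shcbp1 and 8 genes that carry the signal of fibroblast growth factor (FGF) from outside the cell to RAS: the ligand gene Fgf4, the receptor genes Fgfr1 and Fgfr2, the docking and adaptor genes Frs2, Shc1 and Grb2, the RAS activator gene Sos1 and the phosphatase gene Ptpn11. They were taken by symbol and are 9 of 41204 genes in the expression table, and all 9 were among the 15430 genes tested, those with a mean above 0.2 FPKM (fragments scaled to transcript length and to the mapped fragments of the sample). In a second table, of RNA that came down with the protein TRIM71, 8 of the 9 are among 14054 transcripts, and Fgfr2 was not analysed here.

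An FGF ligand binds a receptor tyrosine kinase on the cell surface, and the activated receptor phosphorylates the docking protein FRS2. FRS2 and SHC1 then recruit GRB2, which brings SOS1 to the membrane to load RAS with GTP, and SHP2, the product of Ptpn11, is needed for full signaling to RAF, MEK and ERK. SHCBP1 is a protein that binds SHC adaptors. In mouse embryonic stem cells (ESCs), FGF4 is made by the cells themselves, and ERK activity drives them out of self-renewal, which is why MEK inhibitors are used in ESC medium.

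The cells were mouse ESCs of the background C57BL/6(F) x 129/sv(M), grown on gelatin in N2B27 medium. Poly(A)+ RNA-seq covered 4 groups of 2 samples, which the design calls biological replicates, with each of the genotypes wild type and Trincr1-/- grown in 2i + LIF or in PD + LIF. 2i + LIF held leukemia inhibitory factor (LIF, 1000 unit per ml) with PD0325901 against MEK (1.0 μM) and CHIR99021 against GSK3 (3.0 μM). For PD + LIF, cells spent 24 h in 2i + LIF and then 4 days without CHIR99021, so the MEK inhibitor and LIF were shared by all 8 samples. Trincr1 (Gm2694) is a long noncoding RNA, and the knockout was made with a pair of guides that cut on either side of exons 2 to 4, so its first exon was not between the cuts. Whether both knockout samples came from 1 clone is not given in the sources used here. The pulldown samples were ESCs overexpressing 3XFLag-Trim71 in 2i + LIF, UV-crosslinked and precipitated with a FLAG antibody, plus the input lysate. Precipitates from ESCs with the empty vector were not analysed here.

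The spacing of the lowest FPKM values gave an estimated depth of 9500000 to 12900000 fragments per RNA-seq sample. Gm2694 was at 5.70 to 9.45 FPKM in the 4 wild-type samples. It was at 0 and 0.0754 in Trincr1-/- ESCs in 2i + LIF and at 0.746 and 1.38 in Trincr1-/- ESCs in PD + LIF. Every knockout library thus lay below every wild-type library. Within Trincr1-/- ESCs it was higher in PD + LIF than in 2i + LIF (log2 difference 0.98, limma adjusted p = 0.0105), and the source of this remaining signal was not tested. All 8 of 8 pluripotency markers (Pou5f1, Sox2, Nanog and others) were above 1 FPKM in each group. Their summed level was 1958 to 1979 FPKM in 2i + LIF, 1261 to 1267 in wild-type and 1065 to 1079 in Trincr1-/- ESCs in PD + LIF. The summed trophoblast list of 8 markers was 31.1 to 34.4 FPKM in 2i + LIF, 183.9 to 188.8 in wild-type and 304.5 to 310.0 in Trincr1-/- ESCs in PD + LIF. Of these markers 4 to 6 of 8 were above 1 FPKM in each group. With the medium 5 of the 7 tested rose in each genotype (Krt8, Krt18, Krt7, Gata3 and Tfap2c) and 2 fell (Cdx2 and Eomes). Between genotypes in PD + LIF, Krt8 and Krt18 rose, to means of 144 and 115 FPKM in Trincr1-/- ESCs. The defining factor Cdx2 was under 0.2 FPKM in every PD + LIF sample and rose in Trincr1-/- ESCs in 2i + LIF, from 0.746 to 3.02 FPKM (adjusted p = 0.0120), and Elf5 was at or under 0.204 FPKM in every sample. The neural list summed to 14.1 to 16.2 FPKM in 2i + LIF and to 38.5 to 48.7 in PD + LIF. The fibroblast, primitive endoderm and mesoderm lists were at or under 10.8 FPKM in each sample but differed by medium. The fibroblast sum was 0.942 to 1.64 FPKM in 2i + LIF and 4.69 to 7.25 in PD + LIF. That of primitive endoderm was 6.37 to 6.87 and 7.95 to 10.8, and that of mesoderm 9.14 to 9.67 and 3.65 to 4.54. Of 5 tested primitive endoderm genes, 2 rose and 1 fell with the medium in wild-type ESCs. In Trincr1-/- ESCs 4 rose and 1 fell. The part of these markers in the values below was not tested, and in bulk RNA fewer cells of a type and less RNA per cell cannot be told apart.

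In PD + LIF 4 of the 9 genes differed by genotype, each by less than 1.5-fold. Fgf4 was lower in Trincr1-/- ESCs, and Fgfr1, Ptpn11 and Shcbp1 were higher. In that comparison 12.1% of all tested genes passed an adjusted p of 0.05 (limma on log2(FPKM + 1), Benjamini-Hochberg over 15430 genes), 6.29% higher and 5.77% lower. In 2i + LIF none of the 9 passed, against 1.21% of all genes (0.35% higher and 0.855% lower), although 2 of the 9 were under an unadjusted p of 0.05, as were 2253 of all genes. The difference between the genotype effects in the 2 media was tested as an interaction in the same limma fit. It was called for none of the 9 and for 1.81% of all genes (0.992% higher and 0.817% lower), with 4 of the 9 and 2936 of all genes under an unadjusted p of 0.05. A knockout effect on these genes that differs between the media was therefore not shown. The Fgf4 call in PD + LIF held without any 1 of the 8 samples, while the calls of Fgfr1 and Ptpn11 ended without any 1 of the 4 samples in PD + LIF, and that of Shcbp1 without any 1 of the 8. The median log2 fold change of the 9 genes was 0.01 in 2i + LIF and 0.16 in PD + LIF, beside 0.00 and 0.01 over all genes.

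**Figure D1:**
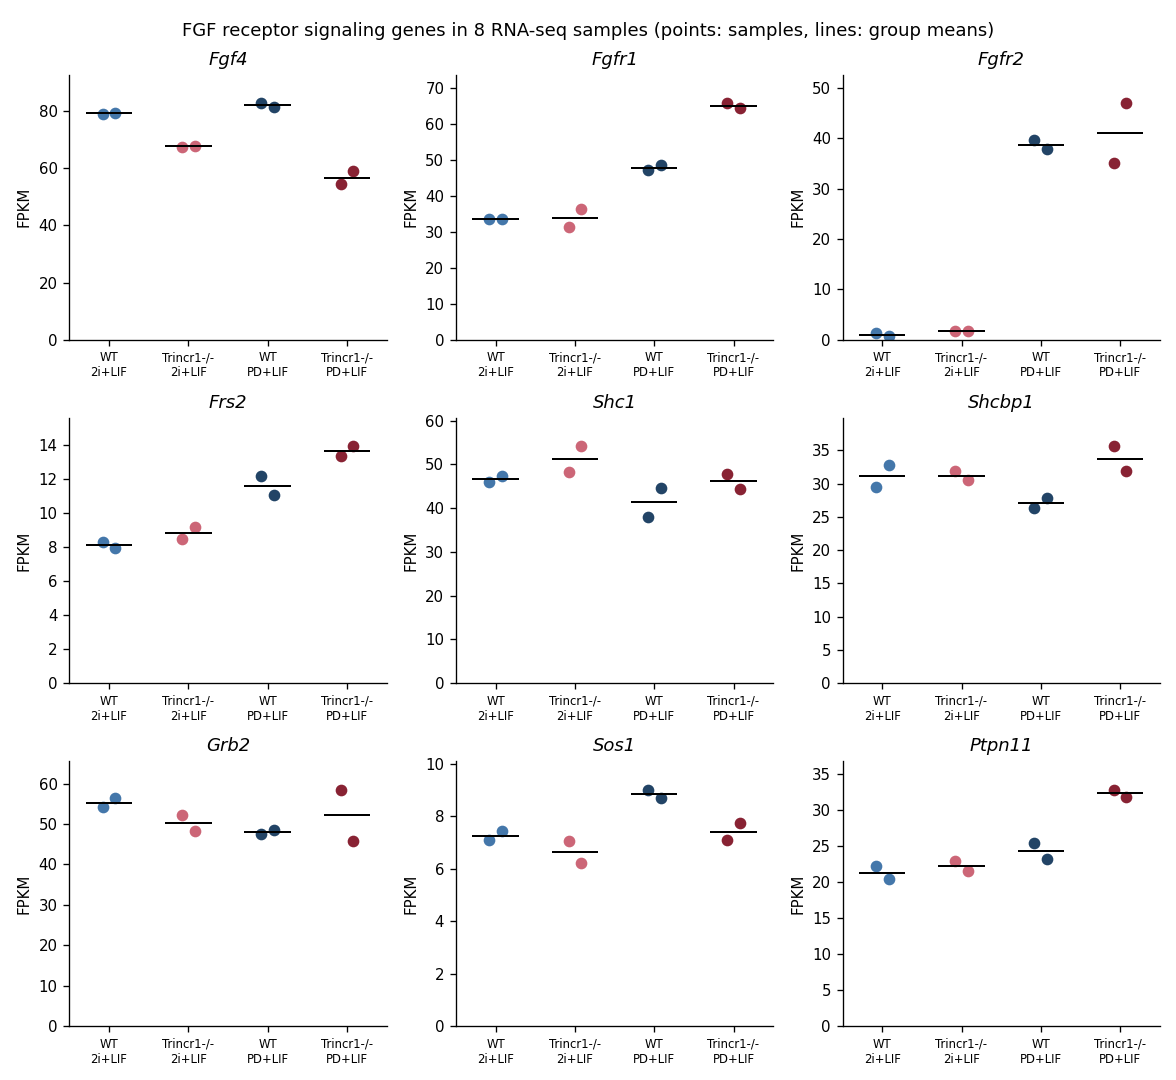
FPKM of the 9 genes in each of the 8 RNA-seq samples. Points are samples, horizontal lines are the means of 2 samples, and each axis starts at 0. The knockout points of Fgf4 lie under the wild-type points in both media. In PD + LIF 6 of the 9 genes separated by genotype (Fgf4, Fgfr1, Ptpn11, Shcbp1, Frs2 and Sos1), beside 57.7% of all genes. By medium all 9 separated in wild-type and 8 of 9 in Trincr1-/- ESCs, Fgfr2 with a wide gap. Of all genes 76.4% and 74.5% did so.

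By FPKM, a scale per transcript length that allows genes to be compared, Fgf4 was the most abundant of the 9 mRNAs in 6 of the 8 samples, and Fgfr1 was in the other two, Trincr1-/- ESCs in PD + LIF. Fgf4 was at 79.0 and 79.4 FPKM in wild-type and at 67.6 and 67.8 FPKM in Trincr1-/- ESCs in 2i + LIF. In PD + LIF it was at 82.8 and 81.3 FPKM in wild-type and at 54.6 and 58.9 FPKM in Trincr1-/- ESCs. The knockout samples lay below the wild-type samples in both media, with no overlap, and the lowest pair was knockout in PD + LIF. The log2 fold change in PD + LIF was -0.52 ± 0.05 (SE; 95% interval -0.64 to -0.41, limma adjusted p = 0.0027). In 2i + LIF it was -0.22, with an interval of -0.34 to -0.11 and an adjusted p of 0.0911 that missed the threshold. The difference between these 2 effects was -0.30 (interval -0.46 to -0.14, adjusted p = 0.0769). The order of the group means was wild type in PD + LIF, wild type in 2i + LIF, Trincr1-/- in 2i + LIF and Trincr1-/- in PD + LIF, and the first 2 of these differed by only 0.05 on the log2 scale (interval -0.06 to 0.16, adjusted p = 0.414).

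Fgfr1 encodes the main FGF receptor of ESCs. It was at 33.7 and 33.6 FPKM in wild-type and at 31.5 and 36.4 FPKM in Trincr1-/- ESCs in 2i + LIF, where the genotypes overlapped. In PD + LIF wild-type samples were at 47.1 and 48.5 FPKM, and knockout samples were at 65.8 and 64.4 FPKM, the highest of the 8. Fgfr1 was thus higher in Trincr1-/- ESCs by 0.44 ± 0.07 on the log2 scale in PD + LIF (interval 0.27 to 0.60, adjusted p = 0.0111), a ratio of means of 1.36. Without 1 of the 4 samples in PD + LIF it was 0.42 to 0.46, with adjusted p-values of 0.0534 to 0.082. In 2i + LIF the difference was 0.01 (interval -0.16 to 0.17), and the interaction was 0.43 (interval 0.20 to 0.66, adjusted p = 0.0799).

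Fgfr2 encodes the receptor best known in the early embryo from primitive endoderm and trophectoderm. It was near its floor in 2i + LIF, at 1.28 and 0.684 FPKM in wild-type and 1.78 and 1.81 FPKM in Trincr1-/- ESCs. In PD + LIF it reached 39.6 and 37.9 FPKM in wild-type and 35.0 and 47.0 FPKM in Trincr1-/- ESCs. Samples separated by medium with a wide gap, and the genotypes overlapped in PD + LIF. The genotype difference in PD + LIF was 0.06 (interval -0.35 to 0.48, adjusted p = 0.854), so a difference as large as 0.48 lay within the interval. In 2i + LIF the knockout samples were higher by 0.51 (interval 0.10 to 0.92, adjusted p = 0.241), at an estimated 32 to 84 fragments per sample. The Fgfr2 entry of the table spans 2960900 bases of chromosome 7 (130162451 to 133123350, GRCm38), while the RefSeq gene ends at 130266808. Of 7796 annotated exon bases, 314 are shared with Ctbp2, a gene that went from 90.3 to 101.6 FPKM in 2i + LIF to 63.5 to 70.8 in PD + LIF. Of 21 tested genes that lie in the span, 3 rose and 9 fell with the medium in wild-type ESCs, and 4 rose and 7 fell in Trincr1-/- ESCs. Plekha1 also rose, by 1.88 and 1.80 in wild-type and Trincr1-/- ESCs, less than the 4.34 and 3.89 of Fgfr2. It went from 19.1 to 22.6 FPKM in 2i + LIF to 73.5 to 85.9 FPKM in PD + LIF, and Htra1 rose by 0.72 and 0.47. Their part in the Fgfr2 values was not tested.

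The medium difference of Fgfr2 was the largest of the 9 genes in any comparison. From 2i + LIF to PD + LIF, 3 of the 9 genes rose and none fell in wild-type ESCs, where 52.2% of all genes were called, 30.9% higher and 21.3% lower. In Trincr1-/- ESCs 4 rose and 1 fell, against 50.0% of all genes, 29.6% higher and 20.3% lower. The called share of the 9 genes was thus 33.3% in wild-type and 55.6% in Trincr1-/- ESCs, and its difference from that of all genes was not tested. Fgfr2 rose by 4.34 ± 0.17 on the log2(FPKM + 1) scale in wild-type ESCs (adjusted p = 6.1e-06, ratio of means 39.4) and by 3.89 ± 0.17 in Trincr1-/- ESCs (adjusted p = 6.0e-06, ratio 22.8). Fgfr1 rose by 0.49 ± 0.07 in wild-type ESCs (adjusted p = 0.0009) and by 0.92 ± 0.07 in Trincr1-/- ESCs (adjusted p = 5.1e-05). The comparisons within 1 genotype and within 1 medium share samples, so they are not independent of each other.

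**Figure D2:**
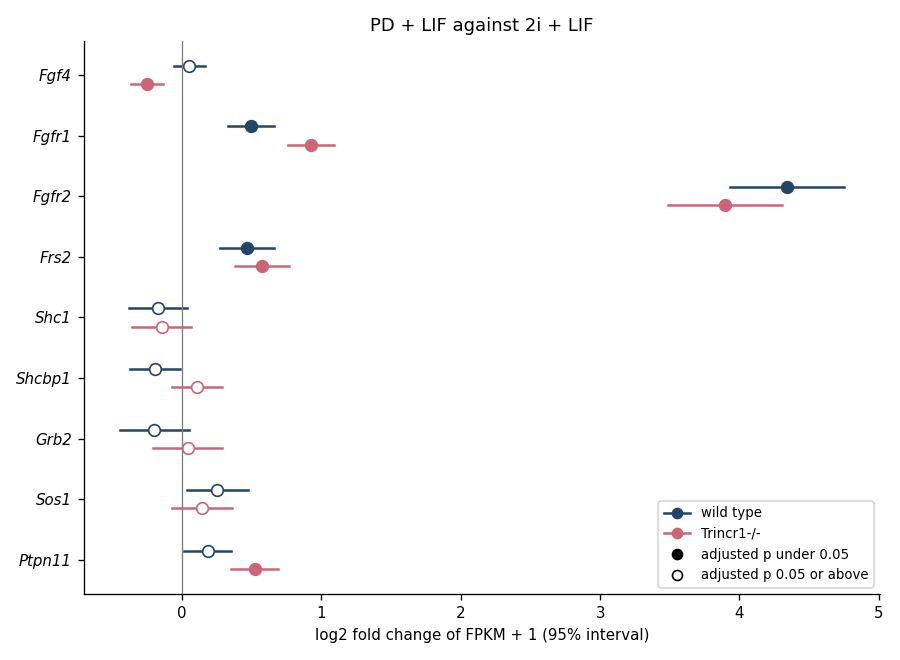
Log2 fold change of FPKM + 1 from 2i + LIF to PD + LIF for each of the 9 genes in wild-type and Trincr1-/- ESCs. Bars are 95% intervals from limma and filled points passed an adjusted p of 0.05. Fgfr2 stands near 4 in both genotypes, and Fgfr1 and Frs2 are above 0 in both.

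The summed FPKM of the 4 FGF receptor kinase genes (Fgfr1 to Fgfr4) was 33.6 to 38.5 in the 4 samples in 2i + LIF, 88.0 and 88.1 in wild-type and 102.6 and 113.2 in Trincr1-/- ESCs in PD + LIF. Fgfr2 made up 1.95% to 5.31% of this sum in 2i + LIF and 34.2% to 45.0% in PD + LIF. Its level was 0.020 to 0.057 times that of Fgfr1 in 2i + LIF and 0.53 to 0.84 times in PD + LIF, and in no sample did it exceed Fgfr1. Fgfr3 stayed at or under 1.61 FPKM and Fgfr4 at or under 0.353 FPKM in every sample. Fgfr3 rose with the medium in both genotypes, by 0.76 (adjusted p = 0.0223) and 1.10 (adjusted p = 0.0050) on the log2(FPKM + 1) scale.

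**Figure D3:**
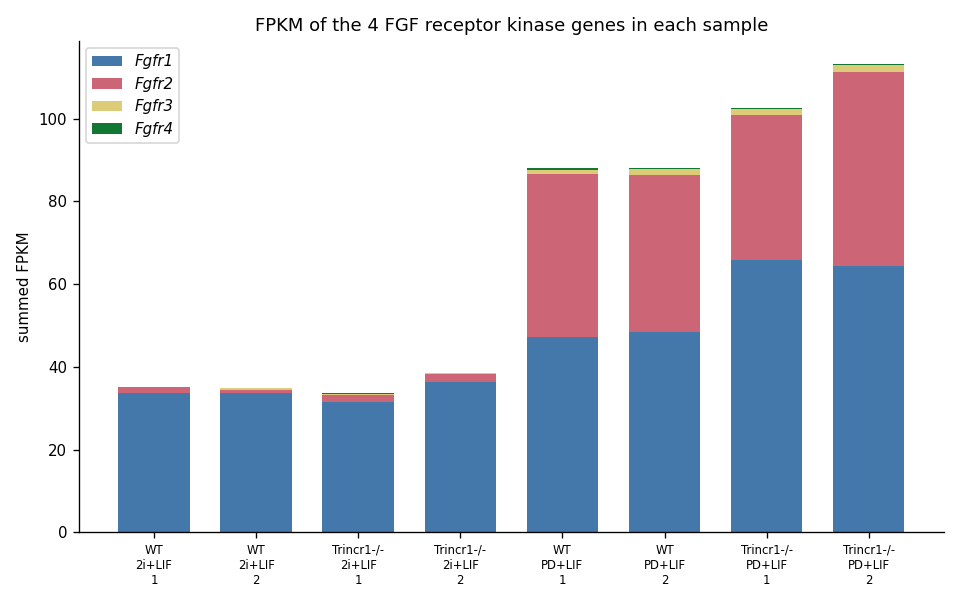
Stacked FPKM of Fgfr1, Fgfr2, Fgfr3 and Fgfr4 in each RNA-seq sample, with genotype, medium and replicate number under each bar. Fgfr1 makes up nearly all of the bar in 2i + LIF, and in PD + LIF Fgfr2 adds 34.2% to 45.0% of the sum.

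The stretches before the start sites of Fgf4 and Fgfr2 are shown for the size of their called differences. On the log2(FPKM + 1) scale Fgf4 carries the largest called genotype difference of the 9 and Fgfr2 the largest called medium difference. They come from RefSeq (GRCm38.p6), where 7 of the 9 genes matched, and each line gives the 250 bases before the annotated start, 5′ to 3′ on the gene's strand. Capitals mark matches, on either strand, to the GC box GGGCGG, the TATA box form TATAAA or its variant TATATA, the box of letters CCAAT (which reads ATTGG on the other strand), the ETS motif form CCGGAAGT, and the TCF/LEF motif forms CTTTGAT or else CTTTGAA. The TATA variant reads the same on both strands, and its 2 matches in Fgf4 overlap.
Fgf4, chr7:144861136-144861385, plus strand: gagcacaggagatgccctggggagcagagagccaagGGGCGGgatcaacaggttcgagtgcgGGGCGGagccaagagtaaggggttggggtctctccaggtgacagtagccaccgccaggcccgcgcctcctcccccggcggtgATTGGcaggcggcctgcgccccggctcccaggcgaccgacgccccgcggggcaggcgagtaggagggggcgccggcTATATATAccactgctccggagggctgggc
Fgfr2, chr7:130266809-130267058, minus strand: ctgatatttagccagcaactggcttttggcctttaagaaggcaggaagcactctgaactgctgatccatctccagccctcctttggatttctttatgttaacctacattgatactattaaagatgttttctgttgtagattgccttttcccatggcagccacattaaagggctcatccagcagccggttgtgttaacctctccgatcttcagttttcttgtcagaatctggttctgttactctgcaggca
The Fgf4 stretch holds 2 GC boxes, a TATA repeat that starts 30 bases before the start site and 1 CCAAT on the reverse strand. Of 32851 windows of 300 bases (250 before and 50 after each start), 35.7% hold GGGCGG, 13.6% TATAAA, 5.7% TATATA, 37.4% CCAAT, 3.9% CCGGAAGT, 3.7% CTTTGAT and 5.1% CTTTGAA. No searched motif was found in the Fgfr2 window, which says only that these letters are not there, and GENCODE lists other Fgfr2 start sites that were not searched. GC content was 69.7% in the Fgf4 window and 43.7% in the Fgfr2 window, beside a median of 52.7% and quartiles of 45.7% and 61.7% over all windows.

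Shcbp1, on chromosome 8 (4735980 to 4779534, GRCm38), was at 29.5 and 32.8 FPKM in wild-type and at 31.9 and 30.6 FPKM in Trincr1-/- ESCs in 2i + LIF. In PD + LIF it was at 26.3 and 27.8 FPKM in wild-type and at 35.6 and 31.9 FPKM in Trincr1-/- ESCs. The genotypes overlapped in 2i + LIF and did not overlap in PD + LIF, where wild-type samples were the lowest of the 8. Groups without overlap are common in sets of 2 samples: 57.7% of all genes had none between genotypes in PD + LIF and 44.4% in 2i + LIF, and 6 of the 9 genes had none in each of these comparisons. The log2 fold change of Shcbp1 was 0.31 ± 0.08 in PD + LIF (interval 0.13 to 0.49, ratio of means 1.25, adjusted p = 0.0447), close to the threshold. Leaving out any 1 of the 8 samples ended this call, with adjusted p-values of 0.0555 to 0.208 and log2 fold changes of 0.23 to 0.39. In 2i + LIF the difference was 0.00 (interval -0.18 to 0.19), and the interaction was 0.30 (interval 0.05 to 0.56, adjusted p = 0.198).

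The medium gave Shcbp1 a log2 difference of -0.20 in wild-type ESCs (interval -0.38 to -0.01, adjusted p = 0.068) and 0.11 in Trincr1-/- ESCs (interval -0.07 to 0.29, adjusted p = 0.288), and neither passed. The order of its group means was Trincr1-/- in PD + LIF (33.7 ± 2.6 FPKM, SD, n = 2), Trincr1-/- in 2i + LIF (31.2 ± 0.92), wild type in 2i + LIF (31.2 ± 2.3) and wild type in PD + LIF (27.1 ± 1.0). The middle pair did not differ beyond their spread, and no 2 neighbors in this order differed at an adjusted p of 0.05. Trim71 itself, the gene of the ubiquitin ligase and RNA-binding protein that was precipitated, was at 30.8 and 31.5 FPKM in wild-type and 37.3 and 37.7 FPKM in Trincr1-/- ESCs in PD + LIF, a log2 fold change of 0.26 (adjusted p = 0.0259). This call was not tested under the alternative settings described below. In 2i + LIF the log2 difference of Trim71 was 0.05 (adjusted p = 0.740), and its interaction was 0.21 (adjusted p = 0.202).

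**Figure D4:**
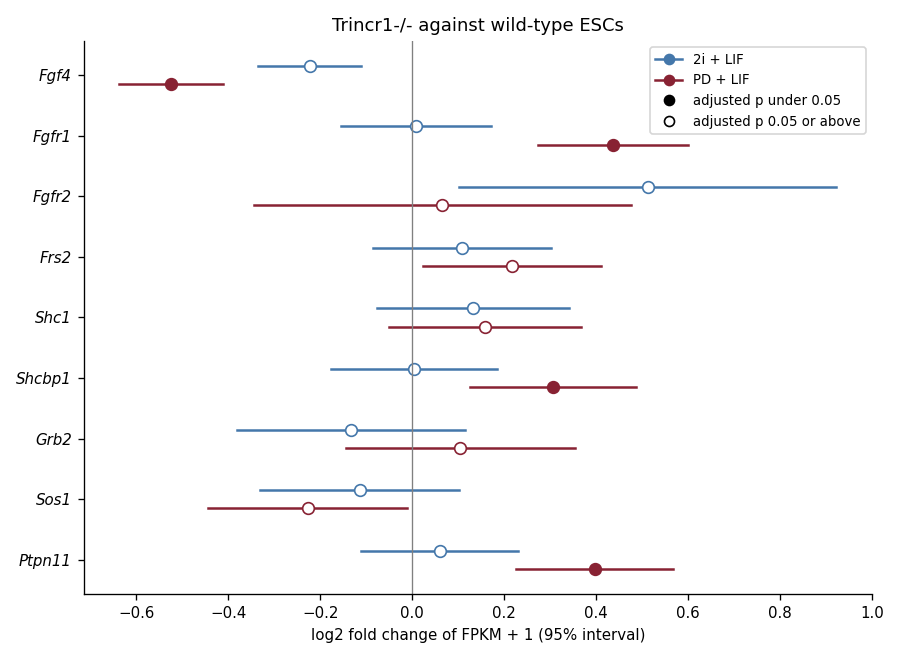
Log2 fold change of FPKM + 1 in Trincr1-/- against wild-type ESCs for each of the 9 genes in 2i + LIF and PD + LIF. Bars are 95% intervals from limma and filled points passed an adjusted p of 0.05. The 4 filled points, all in PD + LIF, are Fgf4 below 0 and Fgfr1, Shcbp1 and Ptpn11 above 0.

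Ptpn11 encodes SHP2, a phosphatase that acts as a positive factor upstream of RAS. It was at 22.3 and 20.4 FPKM in wild-type and at 22.9 and 21.6 FPKM in Trincr1-/- ESCs in 2i + LIF, where the genotypes overlapped. In PD + LIF it was at 25.5 and 23.2 FPKM in wild-type and at 32.9 and 31.9 FPKM in Trincr1-/- ESCs. The 2 knockout samples in PD + LIF stood above the other 6. The log2 fold change between genotypes in PD + LIF was 0.40 ± 0.07 (interval 0.23 to 0.57, ratio of means 1.33, adjusted p = 0.0179). Without 1 of the 4 samples in PD + LIF it was 0.33 to 0.46, with adjusted p-values of 0.0514 to 0.108. The interaction was 0.34 (interval 0.10 to 0.58, adjusted p = 0.148). With the medium Ptpn11 rose by 0.52 in Trincr1-/- ESCs (adjusted p = 0.0009), and in wild-type ESCs its difference was 0.18 (interval 0.01 to 0.35, adjusted p = 0.0709).

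Frs2, the docking protein that links FGF receptors to GRB2 and SHP2, followed the medium. Its samples were at 8.30 and 7.95 FPKM in wild-type and at 8.48 and 9.21 FPKM in Trincr1-/- ESCs in 2i + LIF. In PD + LIF they were at 12.2 and 11.1 FPKM in wild-type and at 13.4 and 13.9 FPKM in Trincr1-/- ESCs, all above the 2i + LIF samples. Frs2 rose by 0.47 ± 0.08 in wild-type (adjusted p = 0.0026) and by 0.57 ± 0.08 in Trincr1-/- ESCs (adjusted p = 0.0010). The genotype difference in PD + LIF was 0.22 (interval 0.02 to 0.41, adjusted p = 0.137) and did not pass.

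The remaining adaptors passed no test in the main fit. For the medium in wild-type ESCs each passed under at least 1 of the alternative settings described below. Grb2, the SH2 and SH3 adaptor, ranged from 45.7 to 58.5 FPKM, and both of these extremes were Trincr1-/- samples in PD + LIF. Shc1, the adaptor that SHCBP1 is named for, ranged from 38.0 to 54.1 FPKM, lowest in a wild-type sample in PD + LIF and highest in a Trincr1-/- sample in 2i + LIF. Sos1, the exchange factor for RAS, was the least abundant of the 9 in PD + LIF, at 9.01 and 8.68 FPKM in wild-type and 7.11 and 7.73 FPKM in Trincr1-/- ESCs. Between genotypes in PD + LIF the log2 intervals were -0.14 to 0.35 for Grb2, -0.05 to 0.37 for Shc1 and -0.44 to -0.01 for Sos1 (adjusted p = 0.57, 0.295 and 0.158). In 2i + LIF they were -0.38 to 0.12, -0.08 to 0.34 and -0.33 to 0.10. The medium difference of Sos1 in wild-type ESCs was 0.25 (interval 0.04 to 0.47, adjusted p = 0.0526). Between media all 9 genes had groups without overlap in wild-type and 8 of 9 in Trincr1-/- ESCs, beside 76.4% and 74.5% of all genes.

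The genes most like Shcbp1 were sought among 8537 genes with a mean of at least 5 FPKM, by the root mean square difference of their centered log2(FPKM + 1) profiles over the 8 samples. They were Clns1a (0.039), Ywhab (0.047), Rsu1 (0.052), Serf2 (0.053) and Dph5 (0.053), where 0 would be the same profile. Ywhab, which encodes a 14-3-3 protein, was at 60.7 and 63.9 FPKM in wild-type and at 81.4 and 75.8 FPKM in Trincr1-/- ESCs in PD + LIF. The nearest to Fgf4 were Atg4d (0.040), Apobec3 (0.053), A830080D01Rik (0.056), Stk38 (0.071) and Mrps24 (0.081). Apobec3 was at 60.5 and 58.8 FPKM in wild-type and at 40.2 and 43.9 FPKM in Trincr1-/- ESCs in PD + LIF.

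Around these genes, 8 lists with 107 further genes are described, of which 89 were tested. Between genotypes in PD + LIF 10 of the 89 rose and 9 fell (11.2% and 10.1%, beside 6.29% and 5.77% of all genes), and in 2i + LIF none was called by limma, with 11 under an unadjusted p of 0.05. With the medium 47.2% of the 89 rose and 20.2% fell in wild-type ESCs, beside 30.9% and 21.3% of all genes, and 49.4% rose and 15.7% fell in Trincr1-/- ESCs, beside 29.6% and 20.3%. These differences were not tested, and the counts of single lists below rest on few genes. Called genes named below with a log2 change under 0.5 were chosen after their values were seen.

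The FGF ligands other than Fgf4 were scarce, and 11 of 21 were tested. In Trincr1-/- against wild-type ESCs in PD + LIF, 1 of the 11 rose and 1 fell. Fgf15, the mouse ortholog of FGF19, rose from 2.79 ± 0.41 to 6.93 ± 0.71 FPKM (log2 fold change 1.07, adjusted p = 0.0058), and Fgf1 fell from 1.88 ± 0.66 to 0.675 ± 0.038 FPKM (-0.76, adjusted p = 0.0318). With the medium 5 rose and 2 fell in wild-type and 6 rose and 2 fell in Trincr1-/- ESCs. Fgf5, a marker of the epiblast, rose by 1.14 in wild-type ESCs (adjusted p = 0.000285), and in Trincr1-/- ESCs it was listed at 0 in 2i + LIF and at 1.93 and 1.99 FPKM in PD + LIF. On the log2(FPKM + 1) scale Fgf15 rose by 1.74 and 2.91 and Fgf10 fell by 1.48 and 1.33 in wild-type and Trincr1-/- ESCs. The list's median was 0.10 between genotypes in PD + LIF, beside 0.01 over all genes. Of the other receptors and Klotho co-receptors, 2 of 5 were tested, and between genotypes in PD + LIF the receptor without a kinase, Fgfrl1, rose from 3.66 ± 0.20 to 5.13 ± 0.24 FPKM (0.40, adjusted p = 0.0417).

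Heparan sulfate chains hold FGF on its receptor, and all 15 genes of their synthesis and core proteins were tested. Between genotypes in PD + LIF 5 rose and 1 fell, with a list median of 0.19. The glypican gene Gpc4 rose from 8.18 ± 1.2 to 17.4 ± 1.5 FPKM (log2 fold change 1.00, adjusted p = 0.0034), and the syndecan gene Sdc3 rose from 2.09 ± 0.37 to 4.23 ± 0.90 FPKM (0.76, adjusted p = 0.0437). Ext1, a polymerase of the chains, rose from 9.57 to 15.2 FPKM (0.61, adjusted p = 0.0279), and Gpc1 and Gpc3 rose by 0.48 and 0.34. Sdc4 fell from 89.0 ± 6.2 to 44.7 ± 7.4 FPKM (-0.99, adjusted p = 0.0053), after rising with the medium from 33.1 FPKM in wild-type ESCs (1.40, adjusted p = 0.0001). With the medium 8 rose and 2 fell in wild-type and 9 rose and 1 fell in Trincr1-/- ESCs, Gpc3 by 2.21 and 2.19, Gpc1 by 2.01 and 2.22 and Sdc3 by 1.31 and 1.90.

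Other adaptors of receptor tyrosine kinases (12 of 15 tested) gave 1 call between genotypes in PD + LIF. Shcbp1l, a relative of Shcbp1, fell from 1.36 to 0.420 FPKM (-0.74, adjusted p = 0.0291). With the medium 6 rose and 1 fell in wild-type and 8 rose in Trincr1-/- ESCs, among them Shc2 (by 1.47 and 1.89) and Gab2 (by 1.00 and 1.25). Of 14 genes of the RAS, RAF, MEK and ERK cascade, each tested, Rps6ka2 fell by 0.36 between genotypes in PD + LIF (adjusted p = 0.0373), with a list median of 0.04. With the medium 8 rose and 3 fell in wild-type and 7 rose and 2 fell in Trincr1-/- ESCs. Mapk3, the gene of ERK1, rose by 1.18 and 1.24, the scaffold gene Shoc2 rose by 0.68 and 0.67, and Mras fell by 3.31 and 2.86. Among 10 brakes on RAS and ERK, 1 rose between genotypes in PD + LIF, the SPRED gene Spred1, from 5.18 ± 0.21 to 8.27 ± 1.0 FPKM (0.58, adjusted p = 0.0152). With the medium 2 of these rose and 5 fell in wild-type, and 2 rose and 4 fell in Trincr1-/- ESCs, and Spry4 fell by 2.08 and 2.06 in that order. The ERK phosphatase gene Dusp6 fell by 1.198 and 0.817 and Il17rd by 1.05 and 1.33, whereas Dusp4 rose by 1.21 and 1.59.

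Of 12 other receptor tyrosine kinases, 10 were tested, and 1 rose and 2 fell between genotypes in PD + LIF. Kit fell from 16.9 ± 2.8 to 5.98 ± 0.11 FPKM (-1.35, adjusted p = 0.0019), Erbb3 from 7.25 to 3.15 FPKM (-0.995, adjusted p = 0.0087), and Erbb2 rose from 4.42 to 7.35 FPKM (0.63, adjusted p = 0.0248). With the medium 3 rose and 2 fell in wild-type and 5 rose and 2 fell in Trincr1-/- ESCs. In that order Kit fell by 1.64 and 3.01, Insr rose by 1.04 and 0.72 and Igf1r rose by 0.66 and 0.85. SHCBP1 is also known from cytokinesis, and of 15 cytokinesis and mitosis genes, all tested, 1 rose and 3 fell between genotypes in PD + LIF, with a list median of -0.10. Birc5 rose by 0.20, and Cep55, Anln and Top2a fell by 0.29, 0.22 and 0.17. With the medium 9 rose and 3 fell in wild-type and 6 rose and 3 fell in Trincr1-/- ESCs. Of these Kif23 rose by 0.61 and 0.62 and Prc1 by 0.63 and 0.55, and Cep55 fell by 0.59 and 0.88.

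The pulldown asked which RNAs TRIM71 holds. The table gives 1 value per transcript for input and 1 for the FLAG precipitate, with no replicate error and no test, and the precipitate was scaled 2.246-fold by the submitters. Of 9651 transcripts above 2 FPKM in input, 492 (5.1%) exceeded a fold of enrichment of 3, and none of the 8 listed genes did. None exceeded a fold of 1 at the deposited scaling, as 15.9% of all transcripts did. This turned with the scaling: Fgf4 was at 0.939 with the means of precipitate and input made equal, and at 1.28 with the 100 highest transcripts left out of those means. Gm2694, at 2.6 FPKM in input and 181.1 in the scaled precipitate, had a fold of 69.7, and Trim71 mRNA had 0.49.

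Fgf4 had the highest fold of the 8, at 62.8 FPKM in input and 39.9 in the scaled precipitate, a fold of 0.635 at percentile 77.0 of all transcripts. The median of 576 transcripts of similar input was 0.232. Grb2 followed, at 37.6 and 10.0 FPKM (fold 0.266), and then Ptpn11, at 7.8 and 1.4 FPKM (fold 0.18). Shc1, the most abundant in input at 117.4 FPKM, was at 5.4 in the precipitate (fold 0.046, beside a median of 0.27 for transcripts of similar input). Fgfr1 was at 25.7 and 0.6 FPKM (fold 0.023, beside 0.167).

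Shcbp1 was at 6.1 FPKM in input and listed at 0 in the precipitate, as were Frs2 (2.5 FPKM in input) and Sos1 (2.1 FPKM). At these inputs a 0 was common: 61.4% of transcripts within 1.25-fold of the input of Shcbp1 were at 0, and 46.4% of all above 2 FPKM. Per the paper, precipitated RNA went straight to cDNA synthesis, while total RNA was first poly(A)-selected. The paper does not say which of these the input followed, so the fold may also hold that difference. Reads on transcripts without poly(A) were left out by the authors. Of 63 pathway list genes above 2 FPKM in input, 4 (6.35%, beside 5.1% of all transcripts) exceeded a fold of 3: Kit (7.61), the heparan sulfate enzyme gene Ndst1 (4.91), the adaptor gene Nck2 (4.05) and the cytokinesis kinase gene Cit (3.27), the last 3 at inputs of 2.2 to 9.2 FPKM.

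**Figure D5:**
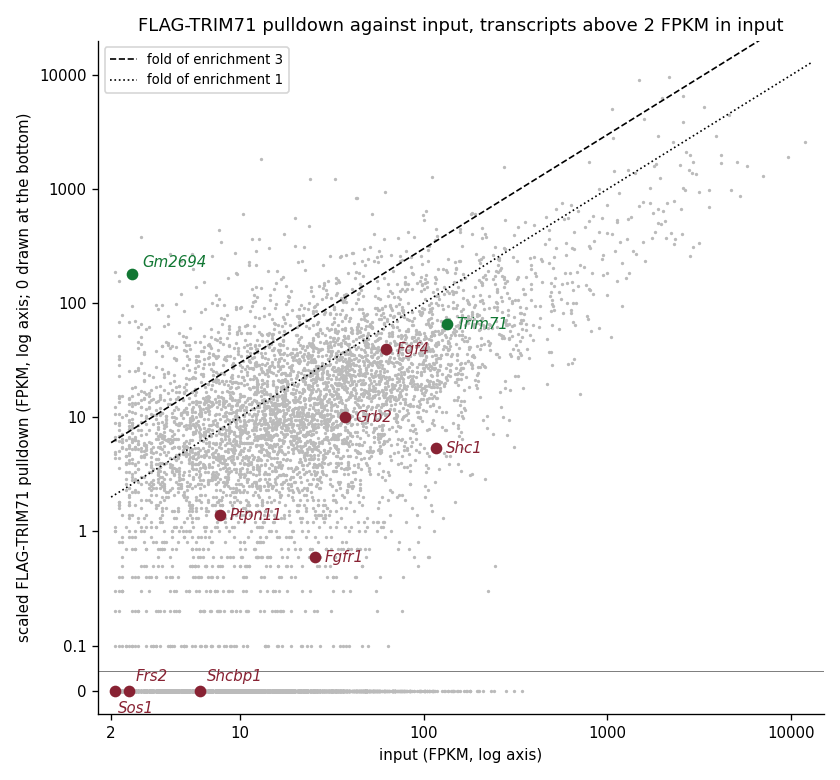
Scaled FLAG-TRIM71 precipitate against input for transcripts above 2 FPKM in input (gray), both in FPKM on log axes, with values of 0 drawn at the bottom. At the deposited scaling the 8 signaling genes (red) lie below the dotted line of fold 1, Shcbp1, Frs2 and Sos1 at 0, and Gm2694 (green) lies far above the dashed line of fold 3.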

How the data were processed

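The authors aligned reads with STAR 2.5.0 and quantified them with Cufflinks 2.2.1, per the submitters' processing notes, and deposited FPKM values for 8 RNA-seq samples and, for the pulldown, 1 input and 1 precipitate column whose replicates were already combined, with the precipitate scaled and their own fold (a deposited ratio, not used) beside it. The notes name mm9, but 79.4% of 30235 genes lie within 1000 bases of RefSeq GRCm38 and 4.8% of 33025 of NCBIM37. For 39 identifiers with several entries the highest was kept. Genes with a mean above 0.2 FPKM were tested on log2(FPKM + 1) with limma 3.58.1 in R 4.3.3 (variance trend, 4 groups in 1 fit, Benjamini-Hochberg). The fit was first run on simulated data with larger changes than the genotype differences called among the 9 genes, so that run does not bear on those calls. FPKM holds no counts, so fragment numbers are estimates. Replicate numbers did not pair the samples. All 9 genes were named throughout. From each list, called genes with a log2 change of at least 0.5, at most the 4 largest, were named (for the medium, those among them in both genotypes), as were the 5 genes nearest to Shcbp1 and Fgf4. Genes and lists were chosen with earlier results of these data known, and 2 list genes are not reported here. Pulldown calls used an input above 2 FPKM and a fold above 3, without replicates. The identifier of Gm2694 differed between the tables, so it was matched by symbol.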

Additional observations from a re-analysis of the deposited data

Results flagged for a closer look

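For 3 of the 89 tested genes of the pathway lists (3.37%, beside 1.81% of all genes) the interaction test in limma was called. It compares the genotype effect in PD + LIF with that in 2i + LIF, with adjusted p-values over all 15430 genes. These 3 calls were not tested under the alternative settings described below. Over all genes the 279 interaction calls became 39 with the replicate block and 357 when only genes with a mean above 1 FPKM were tested. For Kit the effect in PD + LIF minus that in 2i + LIF was -1.37 on the log2 scale (adjusted p = 0.02). Its mean was 54.5 FPKM in wild-type and 55.5 in Trincr1-/- ESCs in 2i + LIF, and 16.9 and 5.98 in PD + LIF. For Fgf15 the difference was 1.17 (adjusted p = 0.0380), from means of 0.130 and 0.0514 FPKM in 2i + LIF and 2.79 and 6.93 in PD + LIF. For Gpc4 it was 0.85 (adjusted p = 0.0418), where the mean fell with the medium from 14.5 to 8.18 FPKM in wild-type ESCs and was 16.3 and 17.4 in Trincr1-/- ESCs.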

How the results depend on the processing

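Of 192 values of called genes under the alternatives, 171 kept their call and 21 lost it, none with a change of direction. Of 519 values of genes not called, 11 passed the threshold and 16, all near 0, changed sign. Those 11 were all for the medium in wild-type ESCs, most of them of Sos1 and Grb2, the others of Shc1, Shcbp1, Fgf4 and Ptpn11. The 4 genes called between genotypes in PD + LIF became 2 (Fgfr1 and Fgf4) with only the 4 samples compared, 3 without a filter, without a variance trend and with the replicate block, and 1 to 3 without 1 sample. With only the 4 samples compared Ptpn11 had an adjusted p of 0.0637, and Shcbp1 had 0.0993. Shcbp1 had 0.0752 without a filter and 0.0862 without a variance trend. The counts from 2i + LIF to PD + LIF were 3 to 4 in wild-type and 5 in Trincr1-/- ESCs, and those in 2i + LIF and for the interaction 0, without 1 sample.

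No replicate pairing was seen: the correlations of replicate differences between groups were -0.054 to 0.006. With the replicate block Shcbp1 had an adjusted p of 0.0741 in PD + LIF, Ptpn11 one of 0.041 for the medium in wild-type ESCs, and all genes called between genotypes in PD + LIF went from 1861 to 1302. With only the 4 samples compared that number was 316, and in 2i + LIF it was 0 beside 186, while the interaction could not be fitted. In 2i + LIF it was 111 with the block and 122 without a filter. For the interaction the 279 genes became 39 with the block, 138 without a filter and 88 without a variance trend. Without 1 sample these counts were 335 to 1519 in PD + LIF, 40 to 113 in 2i + LIF and 3 to 34 for the interaction.

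Under quantile normalization the genotype difference in 2i + LIF was -0.00281 for Shcbp1 and -0.00275 for Fgfr1, and the medium difference in Trincr1-/- ESCs was -0.0408 for Sos1. It also moved the median of all genes with the medium by -0.106 in Trincr1-/- ESCs, and the share of calls that were higher from 59.2% to 49.1% in wild-type and from 59.3% to 48.2% in Trincr1-/- ESCs. With samples scaled to the 75th percentile Shcbp1 in 2i + LIF was at -0.000313, and Grb2 with the medium in Trincr1-/- ESCs was at -0.00117. Without 1 sample, values in 2i + LIF ran from -0.0687 to 0.0782 for Shcbp1, from -0.0944 to 0.109 for Fgfr1 and from -0.00173 to 0.122 for Ptpn11. In PD + LIF they ran from -0.141 to 0.271 for Fgfr2 and from -0.0698 to 0.28 for Grb2, the interaction of Shc1 from -0.0863 to 0.138, and the medium difference of Grb2 in Trincr1-/- ESCs from -0.136 to 0.214.

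No gene passed a pulldown fold of 3 under another scaling. The highest, Fgf4, was 0.283 unscaled and 0.642 with 1 FPKM added. In fits without 1 sample, the sample left alone in its group was taken to vary like the other groups. The causes were not tested. With 2 samples per group small differences cannot be seen, and levels near 1 FPKM rest on few fragments.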
